A study of Mus musculus with 8 samples.

Results

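Interferon regulatory factors (IRFs) and signal transducers and activators of transcription (STATs) were followed through 9 of the 16889 genes in the table. The 9 genes were Irf1, Irf2, Irf4, Irf5, Irf7, Irf8, Irf9, Stat2 and Stat3. They are a part of both families and were chosen with earlier results of these data known. The cells were CD11b+ cells of the mouse colonic lamina propria, sorted for CCR2 or CD64, and each transcript was counted once by its unique molecular identifier (UMI). Both groups were female CD98hcΔCX3CR1 littermates, which carry floxed CD98hc alleles (Slc3a2) and the tamoxifen-inducible Cre recombinase driven by the Cx3cr1 promoter with YFP. The 4 control mice, numbered 1 to 4, received corn oil and the 4 cKO mice, numbered 5 to 8, received tamoxifen (20 mg/ml, 100 µl) on each of 5 days, with readout on day 7. The drug was given to the cKO mice alone, so an effect of the deletion and an effect of tamoxifen cannot be told apart, and the labels do not give the age of each mouse.

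The filters left 3213 of 5947 barcodes, between 85 and 724 cells in a control mouse and between 83 and 484 in a cKO mouse, with 497531 to 3762314 UMIs per mouse. The median cell held 4769 to 5538 UMIs in the control mice and 4149 to 5179.5 in the cKO mice. Control 3 and cKO 5 were the shallow mice (85 and 83 cells), and 28.9% of the cells of cKO 5 were called doublets. Of the barcode sequences, 25 occurred in more than 1 mouse, 8 of them among the cells kept. All start with the same run of A and appear recoded, so this count may not measure shared cells. Levels are given as CPM, the UMIs of a gene per 1000000 UMIs of the cells summed. The targeted gene, Slc3a2, had 337 ± 117 CPM in the control and 320 ± 27.9 in the cKO group (SD, n = 4), so that this 3′ count does not check the labels.

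IRFs bind DNA through a shared domain that reads the sequence GAAA, whereas STATs are latent in the cytoplasm until Janus kinases at an activated cytokine receptor phosphorylate them. IRF9 and STAT2 sit together in ISGF3, the complex through which type I interferon switches on its target genes, and Irf7 is both such a target and a driver of interferon production. In the intestinal lamina propria, IRF8 and IRF4 are known for the dendritic cell types that depend on them, and STAT3 for carrying the signals of interleukin 10 and interleukin 6 in macrophages.

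Across all cells of a mouse summed, Irf7, Irf9 and Stat2 rose in cKO mice and Irf8 fell, while Irf1, Irf2, Irf4, Irf5 and Stat3 were not called at an adjusted p under 0.05. All 9 genes passed the filter on low values (over 1 CPM in at least 3 mice, and a UMI in at least 20 cells). Of the 11387 genes tested in the same fit, 2.99% rose and 1.48% fell. Fold changes, standard errors (SE) and p-values are those of the quasi-likelihood test in edgeR. The p-values were adjusted by Benjamini and Hochberg's method over all genes tested, and the mice are the replicates.

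**Figure D1:**
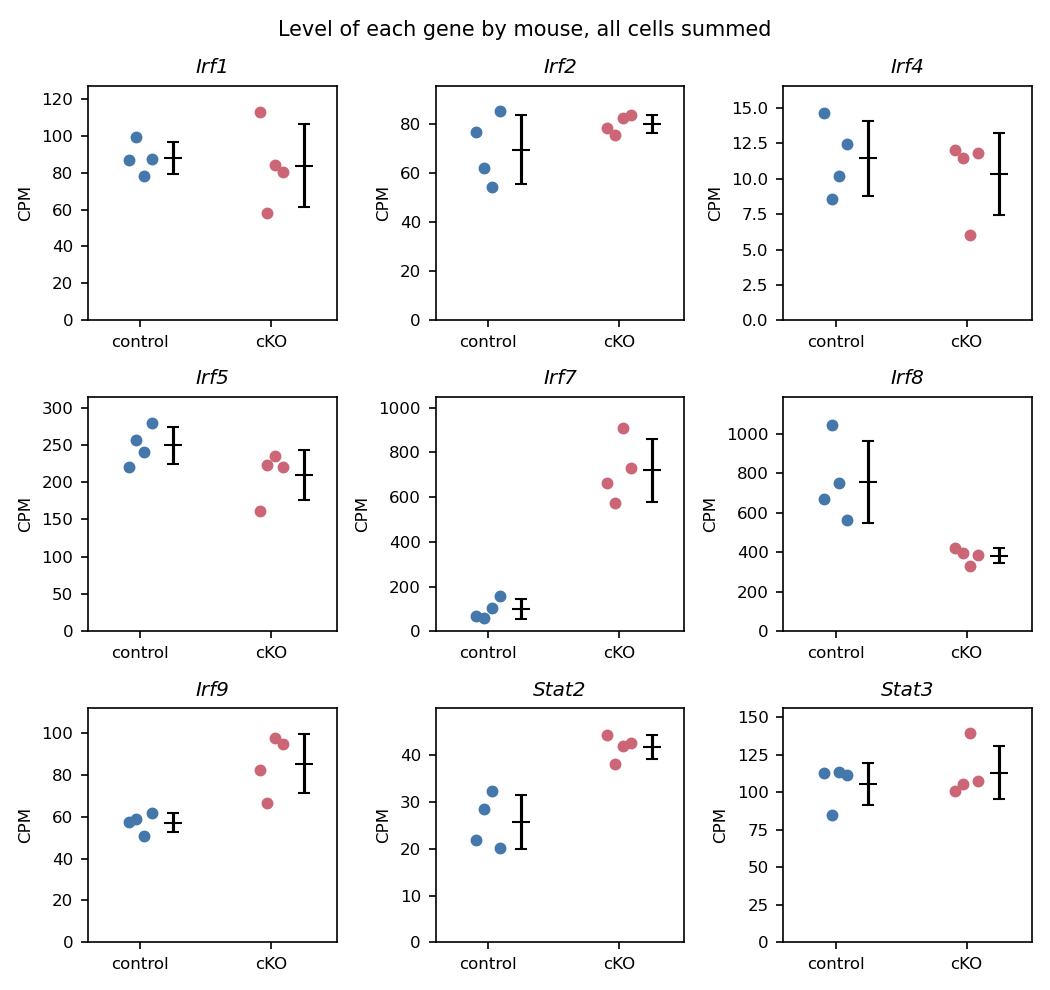
CPM of each of the 9 genes (y axis, from 0) in the 4 control and the 4 cKO mice, all cells of a mouse summed; points are mice and the bar is the mean ± SD. The 4 cKO mice lie above all control mice for Irf7, Irf9 and Stat2 and below them for Irf8, and the groups overlap for the other genes.

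Irf7 had the largest change of the 9. It stood at 70.7, 62.1, 104 and 160 CPM in control 1 to 4 and at 661, 574, 910 and 732 in cKO 5 to 8. The lowest cKO mouse thus lay above the highest control mouse, as it did for 4% of all genes tested (5.85% after the TMM scaling of the fit), and the mean rose from 99.0 ± 44.2 to 719 ± 143 (SD, n = 4 each), a log2 fold change of 2.97 (SE 0.29, adjusted p = 2.4e-04). More cells held the transcript: a UMI of Irf7 was found in 17.4% to 32.2% of the cells of a control mouse and in 64.2% to 83.7% of the cells of a cKO mouse. With every cell thinned to 1000 UMIs, these shares were 5.77% to 11.9% and 34.6% to 51.8%, so the groups did not overlap at equal depth either.

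Irf9 and Stat2, the partners in ISGF3, rose by less. Irf9, which supplies the DNA-binding domain of the complex, stood at 57.4, 58.7, 50.9 and 61.6 CPM in control 1 to 4 and at 82.4, 66.5, 97.3 and 94.5 in cKO 5 to 8, a log2 fold change of 0.67 (SE 0.16, adjusted p = 0.0377). Stat2, which brings its activation domain, stood at 21.8, 28.4, 32.3 and 20.2 in control and at 44.2, 38.1, 41.8 and 42.4 in cKO mice, a log2 fold change of 0.85 (SE 0.19, adjusted p = 0.0270). In both genes the groups did not overlap, with either scaling. The calls were near the threshold: Irf9 was not called without control 1, 2 or 3, without cKO 7 or 8, or with called doublets left out, at log2 fold changes of 0.58 to 0.68, and Stat2 was not called without control 1 or 2 or without cKO 7 or 8, at 0.78 to 0.92.

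Of the 9 genes, Irf8 alone fell. It stood at 668, 1043, 750 and 564 CPM in control 1 to 4 and at 422, 398, 329 and 385 in cKO 5 to 8, and the mean went from 756 ± 206 to 383 ± 39.4 (SD, n = 4 each), a log2 fold change of -0.89 (SE 0.18, adjusted p = 0.0204). Every cKO mouse lay below every control mouse, as for 8.34% of all genes tested (6.11% after TMM scaling). In sums over all cells, fewer cells of a type and less RNA per cell cannot be told apart, and the values within cell types are given further on. Without control 2, cKO 7 or cKO 8, Irf8 was not called, at log2 fold changes of -0.71, -0.84 and -0.89.

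The other 5 genes overlapped between the groups. Irf1, an activator downstream of interferon gamma, ranged from 78.1 to 99.4 CPM in control and from 58.0 to 113 in cKO mice (log2 fold change -0.01, SE 0.18). Irf2, which competes with IRF1 for the same sites, ranged from 54.3 to 85.1 and from 75.6 to 83.6 (0.28, SE 0.16). Irf5, which acts below Toll-like receptors through MyD88, ranged from 220 to 280 and from 161 to 236 (-0.14, SE 0.16). Irf4 was low throughout, at 8.56 to 14.6 in control and 6.03 to 12.1 in cKO mice (-0.13, SE 0.29), and Stat3 ranged from 84.7 to 114 and from 100 to 139 (0.21, SE 0.17). Their adjusted p-values in edgeR's test lay between 0.347 and 0.989. Of the other family members, Irf3, Stat4, Stat5a, Stat5b and Stat6 were tested and none was called. The log2 fold change furthest from 0 among these was that of Stat5a, at -0.48 (SE 0.24, adjusted p = 0.275 in edgeR's test), with 17.4 to 25.5 CPM in control and 9.67 to 16.2 in cKO mice.

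The DNA just before the start sites was read for the motifs of these families, since STAT2 and IRF9 belong to the complex that reads one of them and their genes rose, as did Irf7. The interferon-stimulated response element was searched as GAAANNGAAA and the STAT element as TTCNNNGAA, on both strands, from 250 bases before to 50 bases after each RefSeq start (GRCm38.p6). All 9 genes matched the promoter table by symbol. The first pattern occurred in 3.44% and the second in 8.3% of 32851 promoters of that length. Counted by gene, the shares were 3.99% and 9.55% of 27025 genes. A match of letters is a description, not a site. Stat2 held the first pattern on the opposite strand, Irf2 held both patterns, Irf1 held the STAT pattern once and Irf8 held it at 2 places, whereas the windows of Irf4, Irf5, Irf7, Irf9 and Stat3 held neither as spelled. The 250 bases before the start are shown 5′ to 3′ for the gene with the largest rise (Irf7), the called gene with the first pattern (Stat2), the gene that fell (Irf8, first of 2 starts) and the STAT pattern of Irf1 (first of 2 starts), with the matches in capitals; Irf7 is on the minus strand at chr7:141266425-141266674 and the others are on the plus strand, Stat2 at chr10:128270248-128270497, Irf8 at chr8:120736108-120736357 and Irf1 at chr11:53769764-53770013.
Irf7: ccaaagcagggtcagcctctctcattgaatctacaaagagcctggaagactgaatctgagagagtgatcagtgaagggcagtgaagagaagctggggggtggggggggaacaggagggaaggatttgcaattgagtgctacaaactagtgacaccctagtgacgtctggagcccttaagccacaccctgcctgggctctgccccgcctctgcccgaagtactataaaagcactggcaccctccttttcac
Stat2: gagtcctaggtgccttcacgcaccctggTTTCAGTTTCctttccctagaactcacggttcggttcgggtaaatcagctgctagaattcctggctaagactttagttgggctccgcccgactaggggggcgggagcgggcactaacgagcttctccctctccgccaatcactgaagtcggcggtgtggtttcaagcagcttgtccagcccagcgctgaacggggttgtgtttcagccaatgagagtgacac
Irf8: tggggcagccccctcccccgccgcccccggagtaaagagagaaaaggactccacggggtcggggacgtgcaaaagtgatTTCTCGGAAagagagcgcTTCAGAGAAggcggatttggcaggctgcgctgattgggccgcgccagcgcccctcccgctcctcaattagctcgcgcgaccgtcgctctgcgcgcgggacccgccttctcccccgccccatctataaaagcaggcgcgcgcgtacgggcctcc
Irf1: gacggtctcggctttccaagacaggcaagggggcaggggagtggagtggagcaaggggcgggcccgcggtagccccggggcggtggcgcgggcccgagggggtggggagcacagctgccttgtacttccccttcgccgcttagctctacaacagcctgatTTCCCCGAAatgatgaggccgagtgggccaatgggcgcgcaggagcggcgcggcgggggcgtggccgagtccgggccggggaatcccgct

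In Irf1 the match began 90 bases before the start, in Stat2 222 bases before it, and in Irf8 the matches began 171 and 153 bases before it. The genes themselves lie at chr7:141262706-141266481 (Irf7, minus strand), chr14:55603571-55610030 (Irf9, plus strand), chr10:128270559-128292849 (Stat2, plus strand) and chr8:120736358-120756694 (Irf8, plus strand) in GRCm38. Irf9 shares its strand with the overlapping Rnf31 and Irf8 with Gm20388, so their counts are uncertain where the neighbour's reads could be split with theirs, and Irf7 overlaps Phrf1 on the opposite strand.

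Cells were clustered without the 308 genes under study, which include the 9, and named only where fixed markers led the cluster. The 9 clusters were monocyte-like cells (728 cells, led by genes that include Chil3 and Ly6c2), Cd72, Fcrls and Ccl8 macrophage-like cells (503, 288 and 263), dendritic cell-like cells (518), lymphoid-like cells (182), stromal-like cells (86) and 2 clusters left unnamed, led by Saa3 (205) and Ccl24 (440). The dendritic cell-like cells split into type 1 (258 cells, led by Xcr1, Gcsam and Itgae) and type 2 (260, led by Mgl2 and Cd209a). The Ccl8 macrophage-like cells were shallow, with a median of 1165 UMIs. Lymphoid-like and stromal-like cells were present although the sort was for CD11b, and markers of plasmacytoid dendritic cells, the cells best known for Irf7, were near 0, at 0 to 7.40 CPM summed over 4 genes.

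Irf7 was higher in cKO mice in each of the 7 clusters with at least 20 cells in 2 or more mice per group, and it rose by the test in 6 of them. In monocyte-like cells it stood at 284, 224 and 236 CPM in control 1, 2 and 4 and at 1182, 934, 1165 and 1022 in cKO 5 to 8 (log2 fold change 2.18, SE 0.40, adjusted p = 4.7e-04 in edgeR's test). In Cd72 macrophage-like cells it stood at 70.9, 81.4 and 191 in control and at 477, 829 and 856 in cKO mice (2.61, SE 0.42, adjusted p = 6.55e-05 in edgeR's test). In dendritic cell-like cells it stood at 45.1, 52.5, 94.1 and 138 in control and at 445, 466 and 189 in cKO mice (2.09, SE 0.40, adjusted p = 0.00198 in edgeR's test). No cKO sum lay at or below a control sum in these 3 clusters, as for 4.35%, 7.57% and 3.19% of genes, and cKO 8 was the low one among the dendritic cell-like sums.

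The Ccl24 cluster went from a mean of 80.0 to 500 CPM of Irf7 (log2 fold change 2.47), the Ccl8 macrophage-like cells from 72.7 to 686 (3.51) and the Saa3 cluster, with 2 control mice, from 144 to 924 (2.64), all called. Single mice carried some of these calls: the dendritic cell-like call was lost without cKO 6 or cKO 7 (1.82 and 1.87), that of the Ccl24 cluster without cKO 8 (2.13), and that of the Ccl8 macrophage-like cells, where 10 control UMIs all came from control 4, without control 1, control 2 or cKO 8 (2.79, 2.98 and 3.29) or with up to 10% mitochondrial UMIs (2.15). Without control 4 no control UMI was left in the Ccl8 macrophage-like cells, and the fitted 10.78 is then no bound. In lymphoid-like cells the means were 22.2 and 168 (2.91, SE 0.74, adjusted p = 0.121 in edgeR's test), which was not called, and 2 of 3 control sums there rested on 5 or fewer UMIs and the remaining 1 on none. The shares of genes called higher were 0.775% in monocyte-like cells, 0.478% in Cd72 macrophage-like cells, 0.451% in the Ccl24 cluster, 0.315% in the Saa3 cluster, 0.243% in dendritic cell-like cells, 0.162% in Ccl8 macrophage-like cells and 0.0541% in lymphoid-like cells, of 11095 genes tested. In either direction they were, in the same order, 1.02%, 0.541%, 0.46%, 0.379%, 0.261%, 0.171% and 0.0721%. A test of whether the effect on Irf7 differs between the 7 clusters gave an adjusted p = 1 in edgeR. For that difference edgeR called 0 of the 11095 genes, which is 0% (433 at an unadjusted p under 0.05, and DESeq2 called 18, none of them among the 9). None of the other 8 genes was called within a single cluster by edgeR or DESeq2, though 11 of 56 such tests had an unadjusted p under 0.05.

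**Figure D2:**
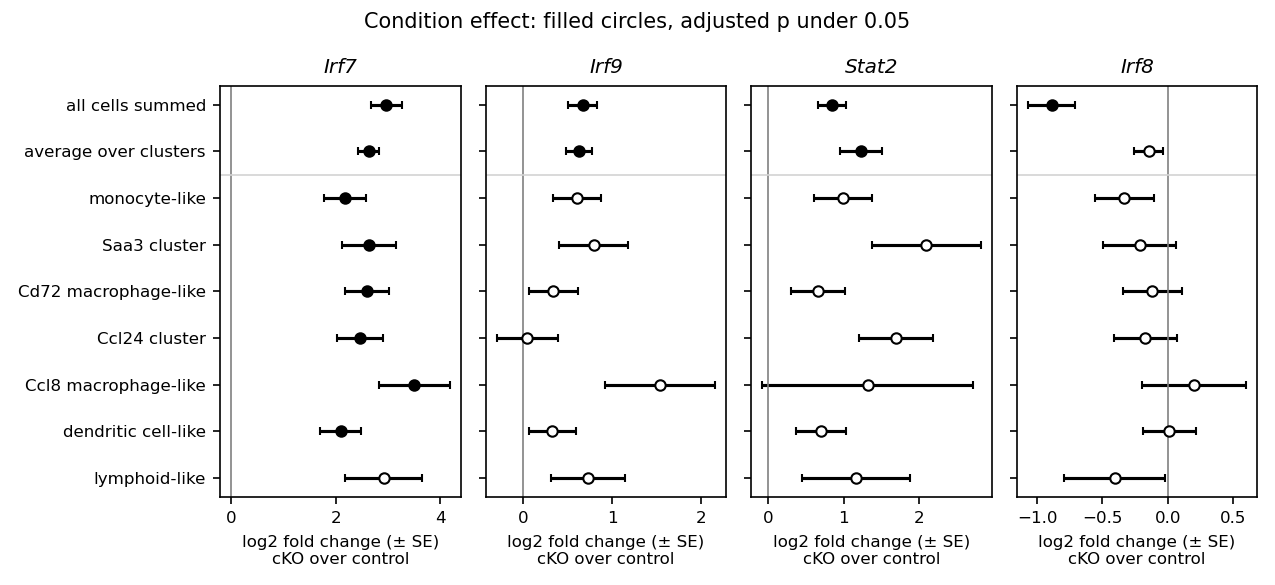
Log2 fold change of cKO over control (x axis, ± SE) of Irf7, Irf9, Stat2 and Irf8 in all cells summed, averaged over clusters and in each of 7 clusters (y axis); filled circles have an adjusted p under 0.05. Irf7 lies between 2.09 and 3.51 in every cluster, Irf9 and Stat2 are filled in the 2 upper lines only, and Irf8 is filled in all cells summed only.

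Averaged over the 7 clusters, each with equal weight, Irf7, Irf9 and Stat2 rose and none of the 9 fell in edgeR or DESeq2 (1, Irf1, at an unadjusted p under 0.05), beside 2.42% of 11095 genes that rose and 0.982% that fell. The averaged log2 fold changes were 2.63 for Irf7 (SE 0.20, adjusted p = 4.4e-16 in edgeR's test), 1.23 for Stat2 (SE 0.27, adjusted p = 0.00225 in edgeR's test) and 0.63 for Irf9 (SE 0.15, adjusted p = 0.00386 in edgeR's test). The fit behind these averages treats the sums of a mouse from several clusters as independent, so their p-values may be too small. Without control 4, the average of Irf7 was 4.17, a fit in which the control sums of Ccl8 macrophage-like cells held no UMI of it; without those cells it was 2.47, an alternative chosen after seeing the data. Stat2 was higher in all 7 clusters and Irf9 too, from 0.66 to 2.09 and from 0.05 to 1.54, and the largest of these rest on few UMIs. Without cKO 7, neither was called in the average (0.999 and 0.53), and Irf9 was also lost without control 1, control 4 or cKO 8 (0.60, 0.56 and 0.58). In the Saa3 cluster, for instance, 3 UMIs of Stat2 in control and 28 in cKO cells gave a ratio of 4.12 (1.27 to 21.2, counting error only). In monocyte-like cells, where counts were higher, Stat2 stood at 26.4, 26.0 and 17.6 CPM in control and at 55.8, 45.9, 38.1 and 43.2 in cKO mice, without overlap.

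The averages of the other genes were not called. Irf1 was the nearest, at -0.48 (SE 0.18, unadjusted p = 0.0078, adjusted p = 0.139 in edgeR's test), and it was lower in 6 of the 7 clusters. It was called lower when cells with up to 10% mitochondrial UMIs were kept (-0.56), when all genes entered the clustering (-0.66) and with sums of at least 10 cells (-0.59). Those of Irf4 and Stat3 were -1.12 and 0.79. Without the Ccl8 macrophage-like cells they were -0.66 and -0.18. In those cells Irf4 had 1 UMI in all and Stat3 none in control and 7 in cKO cells. Against a floor of 3 counts over the control group, the 7 UMIs of Stat3 give a ratio of 1.80. That ratio leaves out the counting error of the 7 UMIs and is no lower bound. Stat3 was not called there (adjusted p = 0.478 in edgeR's test). Irf2 was lower in the Saa3 cluster, at 155 and 132 CPM in control 1 and 4 and at 81.2, 56.0 and 50.6 in cKO 6 to 8 (log2 fold change -1.10, adjusted p = 0.309 in edgeR's test), and it did not pass the test.

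The monocyte-like cells made up 10.3 ± 4.20% of all cells in the 4 control mice and 34.6 ± 10.2% in the 4 cKO mice (mean ± SD). They held 20.8% of the control UMIs of Irf7 and 51.6% of the cKO UMIs. The rise of Irf7 within monocyte-like cells, Cd72 macrophage-like cells and dendritic cell-like cells compares the counts of those cells alone. Its SE and p-value come from a fit over all clusters that shares the estimate of the spread. That fit treats the sums of a mouse as independent, so both may be too small. In the 6 clusters that were neither dendritic cell-like, lymphoid-like nor stromal-like, summed, Irf7 rose by 2.89, Stat2 by 0.95 and Irf9 by 0.68 on the log2 scale (adjusted p = 2.5e-05, 0.026 and 0.043 in edgeR's test), where 2.19% of 10056 genes rose and 1.13% fell.

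Irf7 was also counted in lymphoid-like cells. A UMI was found in 38.6% of 57 T or innate lymphoid cell-like cells in cKO mice against 5.77% of 52 in control mice, at a median of 2803 and 2769.5 UMIs per cell, and in 90.9% of the cKO monocyte-like cells against 41.1% of the control ones, at 5004 and 3950. In the former cells Irf7 stood at 14.9% of its level in the 6 clusters other than dendritic, lymphoid and stromal-like cells in cKO and at 15.3% in control mice. Lyz2, a phagocyte gene used as a gauge of free RNA, stood at 2.49% and 2.55% in the same cells. The phagocyte genes C1qa (2.23% and 1.73%) and Cd68 (4.27% and 2.38%) rested on 11 or fewer UMIs per group there. Plasma cell-like cells gave 39 of the 75 cKO UMIs of Irf7 in lymphoid-like cells. In plasma cell-like cells Irf7 stood at 19.7% of its level in the 6 clusters in cKO and at 11.4% in control mice. Lyz2 stood at 19.1% and 17.3% in plasma cell-like cells, so Irf7 was not clearly above the gauge there. The part of free RNA in the lymphoid values of Irf7 was not tested further.

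Irf8 was highest in type 1 dendritic cell-like cells. In control mice, type 1 dendritic cell-like cells held 2181, 2257 and 2278 CPM (control 1, 2 and 4), and type 2 cells held 358, 306 and 321, a log2 difference of 2.74 ± 0.14 (SD over the 3 mice, on the log2(CPM + 10) scale). All 3 mice showed that direction. Irf8 was left out of the clustering and ranked among the 10 leading genes of the type 1 cells. A UMI was found in 97.2% of control type 1 cells (95% Wilson interval 94.1% to 98.7%, counting error only) and in 43.9% of type 2 cells, beside 47.1% of stromal-like cells, which are not known for Irf8, at medians of 11294.5, 7640 and 4823.5 UMIs. Thinned to 1000 UMIs per cell, the shares were 84.9%, 16.6% and 14.6%, so the share in type 2 cells was close to that in stromal-like cells.

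Below the type 1 cells, the control levels of Irf8 ran from Fcrls macrophage-like cells (438 ± 27.3 CPM) over Cd72 macrophage-like cells (343 ± 38.4), type 2 dendritic cell-like cells (328 ± 26.7), the Saa3 cluster (291 ± 14.5), the Ccl24 cluster (280 ± 54.4), monocyte-like cells (230 ± 42.9) and Ccl8 macrophage-like cells (147 ± 72.4) to lymphoid-like cells (83.8 ± 41.5), each a mean ± SD over 2 to 4 mice. Neighbours that did not differ beyond their spread were Cd72 macrophage-like against type 2 dendritic cell-like cells, and the Saa3 against the Ccl24 cluster. Irf8 was lower in monocyte-like than in Cd72 macrophage-like cells in 3 of 3 control mice, by a log2 difference of -0.57 ± 0.16.

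**Figure D3:**
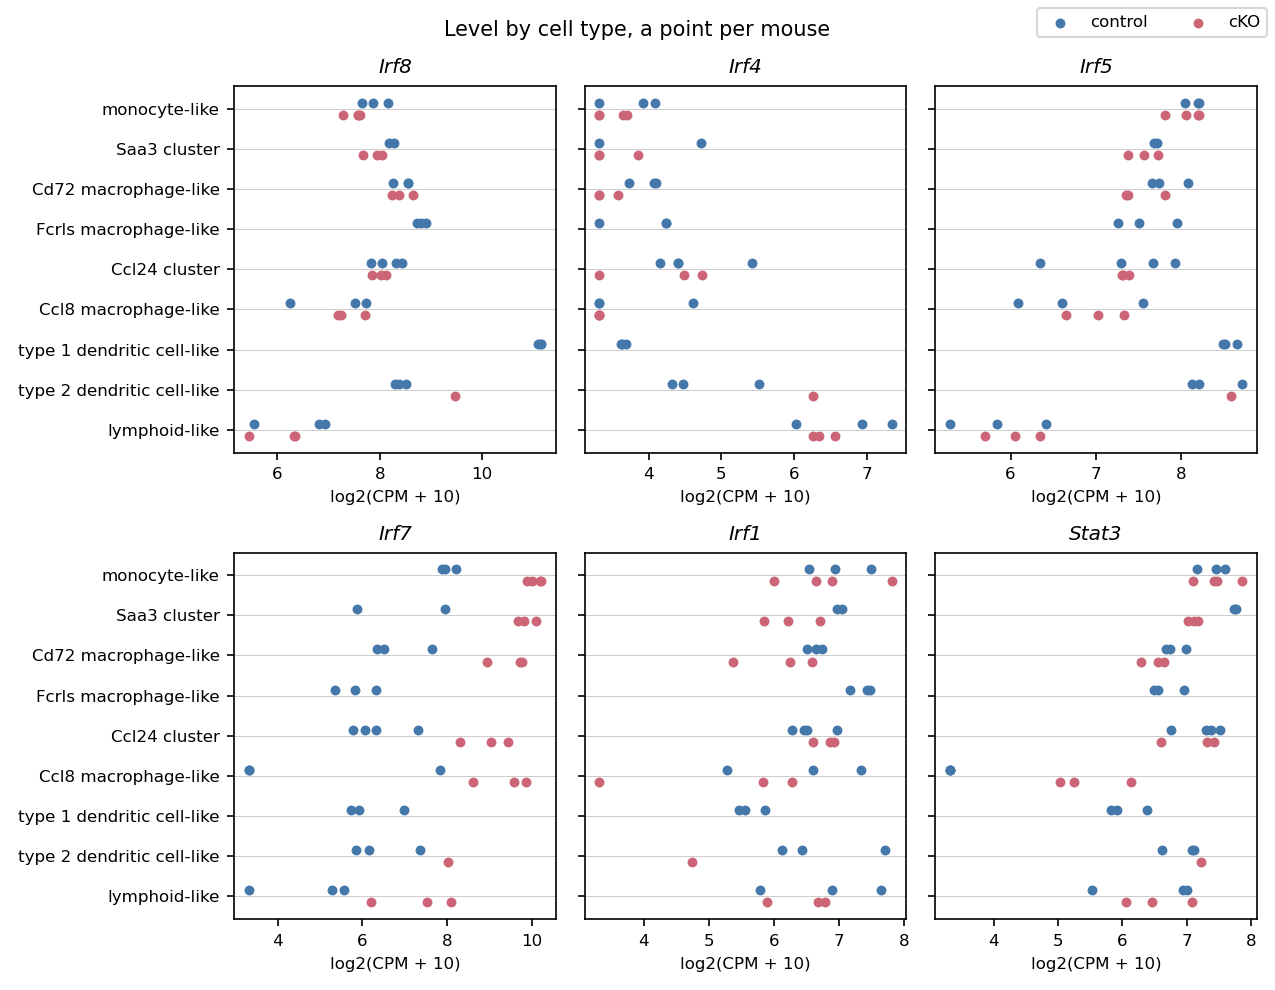
Level of Irf8, Irf4, Irf5, Irf7, Irf1 and Stat3 (x axis, log2 of CPM plus 10) by cell type (y axis), with a point for each control or cKO mouse with at least 20 cells of the type. Irf8 stands far to the right in type 1 dendritic cell-like cells, Irf4 in lymphoid-like cells, and the Irf7 points of cKO mice lie to the right of the control points.

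Within dendritic cell-like cells the levels of Irf8 overlapped between the groups. It stood at 1335, 1844, 1443 and 1141 CPM in control 1 to 4 and at 1539, 1764 and 1304 in cKO 6 to 8 (log2 fold change 0.01, SE 0.20). The share of such cells did not overlap. Dendritic cell-like cells made up 20.2%, 27.9%, 25.9% and 20.8% of the cells in control 1 to 4 and 8.43%, 6.88%, 4.55% and 9.68% in cKO 5 to 8 (exact two-sided permutation test, p = 0.0286, the smallest that 4 against 4 mice allow, and 0.0857 adjusted over 9 clusters). They gave 6090 of 8044 Irf8 UMIs in control (75.7%) and 1270 of 2566 in cKO mice (49.5%), and the type 1 cells alone gave 69.3% and 39.2%.

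Outside the dendritic, lymphoid and stromal-like cells, in the 6 remaining clusters summed, Irf8 stood at 352, 357, 251 and 271 CPM in control 1 to 4 and at 250, 228, 227 and 222 in cKO 5 to 8. The groups did not overlap, as for 5.79% of genes, with 249.8 against 251.5 as the nearest pair, but the change was not called (log2 fold change -0.37, adjusted p = 0.278 in edgeR's test). Averaged over clusters it was -0.15 (SE 0.11, adjusted p = 0.692 in edgeR's test). The type 2 cells had 324 CPM of Irf8 in control and 749 in cKO cells, pooled over mice, with 1 cKO mouse holding 20 cells or more, so this difference has no replicate check.

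**Figure D4:**
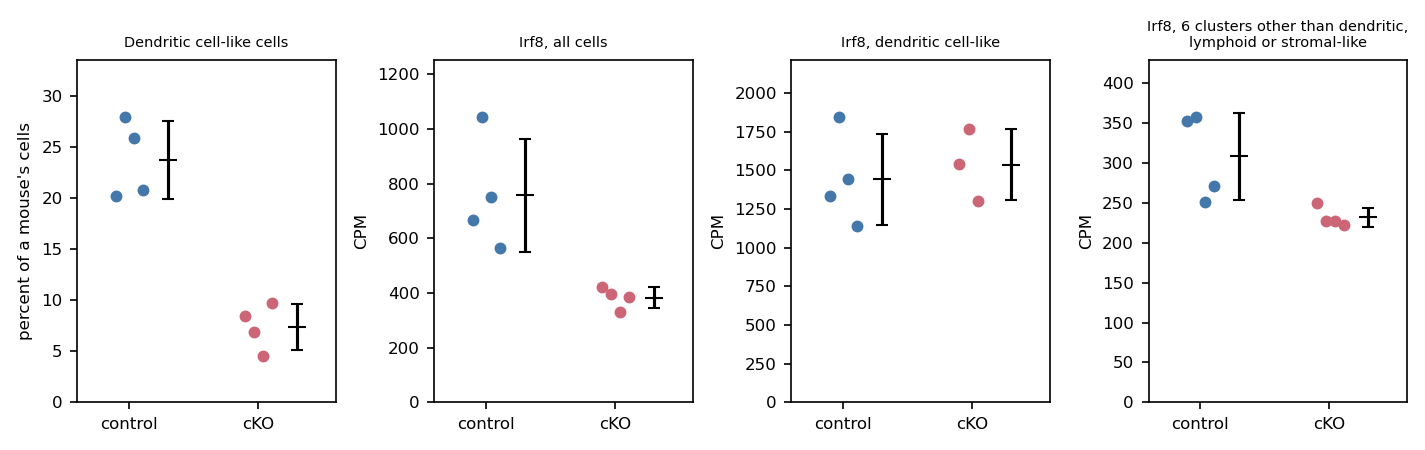
From left to right, share of dendritic cell-like cells and level of Irf8 in all cells, in dendritic cell-like cells and in the 6 clusters other than dendritic, lymphoid and stromal-like cells (y axes from 0, share in percent of a mouse's cells and level in CPM), for control and cKO mice; points are mice and the bar is the mean ± SD. The share falls from 23.7% to 7.38% on average without overlap, and the Irf8 level within dendritic cell-like cells overlaps between the groups.

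Irf4, the counterpart of Irf8 in other cells, was highest in lymphoid-like cells, at 113, 55.2 and 152 CPM in control 1, 2 and 4. These cells gave 43 of 126 control UMIs of Irf4, and plasma cell-like cells, in which Irf4 drives antibody-secreting fate, had 121 CPM pooled over control mice. Type 2 dendritic cell-like cells held 35.8, 12.2 and 9.93 and type 1 cells 2.95, 2.47 and 2.29 in the same mice, the reverse order of Irf8 in 3 of 3 mice (log2 difference of type 1 minus type 2, -1.12 ± 0.61). Over all control mice, type 1 cells held 6 UMIs of Irf4 and type 2 cells 36. The size of the difference thus rests on few counts and on the pseudocount. In monocyte-like and macrophage-like cells Irf4 was near its detection limit, at 7.05 or less in each control monocyte-like sum. In Cd72 macrophage-like cells 12 UMIs in control against 1 in cKO cells gave a ratio of 0.155 (0.00363 to 1.05), which includes no change.

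The remaining genes were spread more evenly. Irf5 stood at 366 ± 23.0 CPM in type 1 and 323 ± 77.6 in type 2 dendritic cell-like cells of control mice. The level in type 2 cells did not differ beyond the spread from that in monocyte-like cells (275 ± 17.3, a log2 difference of 0.20 ± 0.30, higher in 2 of 3 mice). It stood at 108 ± 62.3 in Ccl8 macrophage-like and 50.5 ± 23.2 in lymphoid-like cells. Those did not differ beyond their spread either. The 1 control mouse with enough stromal-like cells to be summed held 21.1 there. Irf1 was higher in Fcrls macrophage-like (155 ± 18.4) than in Cd72 macrophage-like cells (89.2 ± 7.63) and lowest in type 1 dendritic cell-like cells (39.7 ± 7.50). Irf2 and Stat3 were higher in monocyte-like than in Cd72 macrophage-like cells in 3 of 3 control mice, by 0.72 ± 0.17 and 0.60 ± 0.39 on the log2 scale, and both were lower in type 1 than in type 2 dendritic cell-like cells in 3 of 3, by -0.72 ± 0.28 and -0.89 ± 0.34. Irf7 itself was higher in monocyte-like than in Cd72 macrophage-like cells already in control mice, by 1.17 ± 0.80.

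The genes whose pattern was most like that of a member were sought over 48 sums of a mouse and a cluster, among 4731 genes with a mean of at least 20 CPM. The sums share mice, depth and condition, so these correlations are a description. Most of the genes named here no longer led when Spearman's rho was used, as given further on. For Irf7 they were Oasl2 (Pearson r = 0.86), Gm7676 (0.81) and Ifitm3 (0.81), the first and last known interferon-induced genes, and for Irf8 Naaa (0.89), Cst3 (0.86) and Wdfy4 (0.84), which is needed for cross-presentation by type 1 dendritic cells; Naaa and Wdfy4 are in the marker list of those cells. Irf4 was most like Tnfrsf18 (0.89), Ctla4 (0.87) and Derl3 (0.86), Irf5 like Psap (0.84), Lgals3 (0.83) and Tifab (0.82), and Stat3 like Slc38a2 (0.85), Icam1 (0.85) and Rbm39 (0.84). Irf9 (Ifi206 0.68, Phf11b 0.67, Parp9 0.66) and Stat2 (Ifi35 0.68, Ifi44 0.65, Gch1 0.64) had looser likenesses, and Irf1 (Ppp1r9b 0.60, Ubap2l 0.60, Yipf3 0.58) and Irf2 (Tnfrsf1b 0.63, Ythdf3 0.62, Cdc42ep2 0.61) the loosest. Between the 9 genes themselves, Irf5 and Irf8 had r = 0.74, Irf7 and Irf9 0.62, and Irf7 and Stat2 as well as Irf9 and Stat2 0.51.

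The pathway around the 9 genes was read from 7 lists, in all cells summed, where the median log2 fold change of all genes tested was -0.03, 2.99% of them were called higher and 1.48% lower. Of 24 targets of ISGF3 and IRF7 tested, 22 rose and none fell, with a median of 1.66. Ifi44 rose from 2.86 to 42.3 CPM (log2 fold change 4.34), Isg15, an ubiquitin-like modifier, from 113 to 662 (2.65), Oasl2 from 28.4 to 154 (2.55) and Ifit3, which binds viral RNA complexes, from 23.6 to 104 (2.47). The members not called were Ifit2 and Mx1, at 1.52 and 1.03. Averaged over clusters, where 2.42% of all genes were called higher, 23 of the 24 rose. Of interferon gamma and IRF1 targets, 5 of 17 rose and 1 fell (median 0.63): Iigp1 (2.11), Irgm1 (1.06), both immunity-related GTPases, and Nlrc5 (0.97) rose, and Ciita, the master regulator of MHC class II genes, fell by 0.98 on the log2 scale. Averaged over clusters, 4 of the 17 rose and none fell, beside 2.42% and 0.982% of all genes. Iigp1 (2.08) and Irgm1 (1.18) were called there. Nlrc5 (0.64, SE 0.32) and Ciita (-0.44, SE 0.44) were not.

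Upstream of the factors, fewer genes were called, beside the 2.99% of all genes called higher and 1.48% called lower in all cells summed. Of 15 sensors, adaptors and kinases, 3 rose and none fell (median 0.44), among them Ddx58, the RIG-I sensor of viral RNA, from 12.2 to 37.5 CPM (log2 fold change 1.80), and Ikbke, a kinase that activates IRFs, from 17.4 to 35.3 (1.21). In the average over clusters, 2 of the 15 were called higher, beside 2.42% of all genes. Ddx58 was called there (2.23, SE 0.39), whereas Ikbke stood at 0.08 (SE 0.66) and was not called. None of 12 receptors and Janus kinases was called by edgeR in all cells summed (median 0.13), while 6 had an unadjusted p under 0.05 and DESeq2 called 1, higher. The receptor chain with the highest level, Ifngr1, stood at 485 ± 55.7 in control and 344 ± 56.9 in cKO mice (-0.39, adjusted p = 0.18 in edgeR's test) and was called lower in the average over clusters (-0.49, SE 0.10). Ifngr2, the other chain of that receptor, stood at 109 ± 22.2 and 144 ± 3.57 (0.48, adjusted p = 0.103 in edgeR's test). Of 11 inhibitors and corepressors, Usp18, which restrains the type I interferon receptor, rose from 36.8 to 109 (1.83) and no other was called (median 0.19).

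Of 13 STAT3 targets, 2 rose and none fell in all cells summed (median 0.54), beside the 2.99% of all genes called higher and 1.48% called lower there. Il1rn, the interleukin 1 receptor antagonist, rose from 161 ± 83.4 to 549 ± 250 CPM (log2 fold change 1.89, SE 0.40). Of 13 partners of IRF4 and IRF8, 1 rose and 2 fell (median 0.35), and those that fell were Batf3 (130 to 58.9 CPM, -1.03), which acts with IRF8 in type 1 dendritic cells, and Id2 (596 to 345, -0.69). Neither was called in the average over clusters, where none of the 13 was by edgeR or DESeq2 and 3 had an unadjusted p under 0.05, all higher. In all cells summed, 0 genes in the lists of ISGF3 and IRF7 targets, sensors and STAT3 targets were lower at an unadjusted p under 0.05 in edgeR and 0 were called lower by DESeq2. In the average over clusters, 2.42% of all genes were called higher and 0.982% lower. Of the 13 STAT3 targets, 3 were called higher there, Il1rn among them (1.41, SE 0.23). Only 1 was called lower, Junb (-0.46, adjusted p = 0.0015 in edgeR's test), which is named after its values were seen. Some of these list genes are in a table of changed genes that the study drew from these same libraries, so their direction is not independent evidence.

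**Figure D5:**
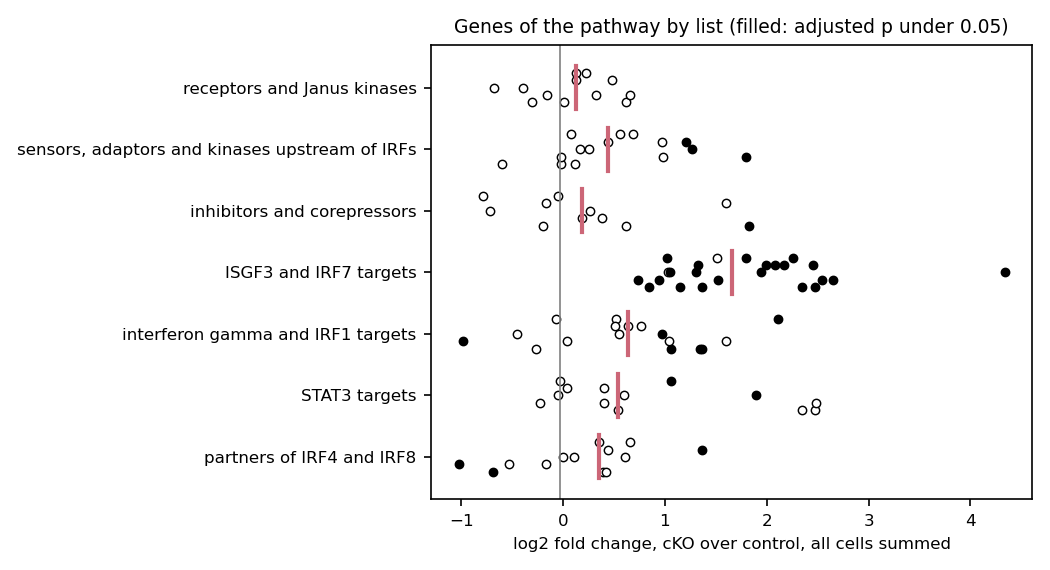
Log2 fold change of cKO over control in all cells summed (x axis) for each tested gene of 7 lists (y axis); filled circles have an adjusted p under 0.05, the coloured bar is the median of a list and the grey line the median of all genes tested (-0.03). The targets of ISGF3 and IRF7 lie furthest right, with 22 of 24 circles filled.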

How the data were processed

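Single-cell libraries (10x, 3′) were made from 1 well per mouse on the same day. The authors deposited a table of raw counts, in UMIs per gene and barcode, made with Cell Ranger (STAR 2.5.3a and R 3.5.0 in the submitters' processing notes, genome build mm10), and 88 of its 16889 genes have no symbol. Barcodes were mapped to mice by their suffix, and groups came from the sample labels.

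Cells were kept at a log10 UMI count of at least 2.8, a log10 gene count of at least 2.6 and at most 5% mitochondrial UMIs. Barcodes with any hemoglobin UMI were left out. Called doublets (Scrublet in scanpy 1.11.5) were kept and left out only as an alternative. Cells were normalized and reduced to 8 principal components with scran 1.30.0 and scuttle 1.12.0 in R 4.3.3, then joined into 9 clusters by Ward's method, without 308 genes (the 9 genes, the listed genes and a table of changed genes from the study). No cell annotation was used.

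UMIs were summed per mouse, and per mouse and cluster with at least 20 cells (48 sums), and tested with edgeR 4.0.16 (quasi-likelihood, TMM scaling, Benjamini-Hochberg adjustment over all genes tested, threshold 0.05). The fit over clusters treats the sums of a mouse as independent. Genes needed over 1 CPM in at least 3 sums and a UMI in at least 20 cells. In the sums over all cells, each mouse is 1 replicate. Within a single cluster each mouse gives 1 sum, but the spread is estimated over the sums of all clusters. The p-values within clusters may therefore be too small as well. Shares of clusters were compared by an exact permutation test (R 4.3.3). Intervals cover counting error only, and Wilson intervals are at 95%. A floor (3 counts) covers the counting error of the empty group alone.

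The 9 genes and the lists were chosen with earlier results of these data known. Named beside the 9 were the other Irf and Stat genes, Slc3a2, up to 4 called genes of each list with the largest change and no overlap (without any, up to 2 with the highest level), the 3 genes most like each of the 9, and cluster markers. Members not called were named in the ISGF3 list after their values were seen. Another 2 family genes are not reported here. The scripts were tested on simulated data. Alternatives were DESeq2 1.42.0, limma-voom (limma 3.58.1, also with the mouse as a random term), RLE scaling, no filter, doublets left out, 10% mitochondrial UMIs, other clusterings, other sum sizes, another pseudocount, thinning, Spearman's rho, each mouse left out, the mice with fewest cells left out and, chosen after seeing the data, the average and the difference between clusters without the Ccl8 macrophage-like cells.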

Additional observations from a re-analysis of the deposited data

Results flagged for a closer look

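Of 47 groups of 4 to 10 mice examined for a mouse far from the others, 4 had one, where chance gives about 1 in 20 groups. In all cells summed, Irf4 stood at 6.03 CPM in cKO 7 against 11.5 to 12.1 in the other cKO mice, and Stat3 at 84.7 in control 2 against 112 to 114 in the other control mice. In the Ccl24 cluster, Irf4 stood at 32.7 in control 2 against 7.78 to 11.3 in the other control mice. In monocyte-like cells, Irf8 stood at 146 in cKO 6 against 180 to 186 in the other cKO mice.

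The barcodes outside the cell filters enter no value of the report except the alternative that keeps cells with up to 10% mitochondrial UMIs, and Irf7 was counted there too. Summed per mouse, it stood at 62.3 ± 36.5 CPM in control and at 505 ± 124 in cKO mice (SD, n = 4 each), with every cKO mouse above every control mouse (exact two-sided permutation test, p = 0.0286, the smallest that 4 against 4 mice allow, not adjusted over the 9 genes). Irf9, the next nearest, stood at 64.9 ± 10.6 and 88.8 ± 23.1 (exact permutation p = 0.0571).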

How the results depend on the processing

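No paired analysis was possible because control mice are numbered 1 to 4 and cKO mice 5 to 8, so the groups share no replicate number. Irf7 was called higher in all cells summed and in the average over clusters under every alternative run, and no value that passed the test changed direction. The cause of the changes that follow was not tested.

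With DESeq2, 225 genes were lower in the average over clusters (109 in edgeR) and 18 differed between clusters (0 in edgeR). Without the low-count filter, 314 genes were lower in all cells (169 with it) and 121 differed between clusters. Without called doublets, 103 genes were lower in all cells and Irf9 was at 0.59 (adjusted p = 0.118 in edgeR's test). With up to 10% mitochondrial UMIs, 178 genes and 1 of the 9 (Irf1) were lower in the average and 9 genes differed between clusters. Without the mice with fewest cells, Irf9 was at 0.68 in all cells (adjusted p = 0.0717 in edgeR's test) and 8 genes differed. With dendritic, lymphoid and stromal-like cells left out, 220 genes rose in all cells (341 with them), 0 of the 9 fell and Irf8 was at -0.37. With 7 Ward clusters, 1 call was made within a cluster for a gene other than Irf7 (Stat2) and 2 genes differed between clusters, and with 12, 3 differed. With graph clustering, 177 genes were lower in the average, Stat2 was at 0.78 there (adjusted p = 0.0992 in edgeR's test) and 2 genes differed. With all genes in the clustering, 1 of the 9 (Irf1) was lower in the average, 5 genes differed, and Irf8 was higher by 3.85 in type 1 than in type 2 dendritic cell-like cells and by 0.30 in Cd72 macrophage-like than in monocyte-like cells. With sums of at least 10 cells, 1 of the 9 (Irf1) was lower and 3 genes differed. With a pseudocount of 1, Irf4 was higher by 2.29 in type 2 than in type 1 cells. Thinned to 1000 UMIs, the share of cells with Irf7 differed by 36.1 percentage points (50.6 unthinned). By Spearman's rho, 6 of the 27 most alike genes were still among the 3 most alike of their gene.

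With each mouse left out in turn, 104 to 422 genes rose and 41 to 290 fell in all cells, with 1 to 3 and 0 to 1 of the 9 among them. The log2 fold changes there ran from 2.78 to 3.32 for Irf7, -1.03 to -0.71 for Irf8, 0.58 to 0.79 for Irf9 and 0.73 to 0.93 for Stat2. In the average, 130 to 290 genes were higher and 36 to 134 lower, with 1 to 3 and 0 of the 9, and Irf7 ran from 2.38 to 4.17 (without control 4), Irf9 from 0.53 to 0.71 and Stat2 from 0.999 to 1.73. Irf7 was called in 4 to 6 clusters, the other 8 genes in 0, and 0 to 10 genes differed between clusters. Depth limits what the Ccl8 macrophage-like sums can show of Irf4 and Stat3, at 1 and 7 UMIs in all.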
